A study of Mus musculus with 35 samples.

Results

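The AP-1 factor genes examined here are 9 of the 21631 protein-coding genes in the gene table, taken by name: the Fos family (Fos, Fosb, Fosl1, Fosl2), the Jun family (Jun, Junb, Jund) and the related genes Atf3 and Batf3. Every deposited peak over such a gene or within 50 kb of it was collected from 22 ChIP-seq peak lists, and this stretch is called the gene's window. On the build GRCm38 the Fos family lies at 4 places, Fos at chr12:85473890-85477274, Fosb at chr7:19302696-19310118, Fosl1 at chr19:5447698-5455938 and Fosl2 at chr5:32136472-32157840. The Jun genes are Jun at chr4:95049036-95052222, Junb at chr8:84976909-84978748 and Jund at chr8:70697739-70700616, and the last pair lie close together, Atf3 at chr1:191170296-191183333 and Batf3 at chr1:191098414-191108943. All 9 genes had peaks of both H3K27ac and KLF4 in at least 2 libraries, so all 9 passed the filter on low values.

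AP-1 is a family of dimers of basic leucine zipper proteins. Jun proteins pair with Fos proteins or with each other, Atf3 and Batf3 can take the place of a Fos protein, and the dimers bind the sequence TGANTCA or the related cyclic AMP response element. Growth factors and stress switch the genes on through MAP kinases, several of them within minutes, and AP-1 sites are common in the enhancers of fibroblasts. Acetylation of histone H3 at lysine 27 (H3K27ac) marks active promoters and enhancers, and KLF4 is a zinc finger factor used to reprogram fibroblasts.

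The series followed mouse embryonic fibroblasts (MEF) of mixed C57BL/6 and 129 background that carried the inducible cassette OKSM (Oct4, Klf4, Sox2 and Myc) at Col1a1 and the activator M2rtTA at ROSA26. H3K27ac was mapped in 2 libraries of uninduced MEF in MEF medium, in 3 libraries of unsorted cells at day 3, in 3 of cells sorted for SSEA1 at day 6, in 2 of SSEA1-sorted cells at day 9, and in 2 of the embryonic stem cell (ESC) line V6.5. Days 3, 6 and 9 were in ESC medium with LIF, doxycycline, which induces the cassette, and ascorbic acid. The ESC of the H3K27ac libraries were also in LIF, with no MEK or GSK3 inhibitor listed. KLF4 was mapped in 2 libraries each of day 3, day 6, day 9, ESC in serum and LIF, and ESC in 2i, which adds inhibitors of MEK and GSK3. The reprogramming cells and their MEF controls thus share the transgenes, the ESC are 1 line without them grown on irradiated feeder cells, and KLF4 in MEF was not analysed here. A lower share of cells with a mark and less of the mark per cell cannot be told apart in these bulk samples.

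Peak lists differed in size between stages, and this bears on every level below. H3K27ac peaks covered 82.8 to 83.5 Mb of the genome in MEF, 23.8 to 38.4 Mb at day 3, 9.21 to 19.9 Mb at day 6, 48.9 to 49.5 Mb at day 9 and 62.3 to 66.3 Mb in ESC, and KLF4 lists held 21129 to 34640 peaks. The lists carry no read counts and the sequencing depth is unknown, so levels are given as covered length in the window (kb) and as covered length per Mb that the whole list covers (bp per Mb). Of 8 fibroblast markers, 8 had an H3K27ac peak in both MEF libraries and 7 or 8 in day 3 libraries, and 3 (Twist1, Prrx1 and Fn1) kept one at days 6 and 9, with 3 to 5 in ESC. All 8 pluripotency markers had one at day 9 and in ESC, against 2 or 3 in MEF, 1 or 2 at day 3 and 1 at day 6. Of 3 endothelial markers, 3 had peaks in MEF, 0 or 1 at day 3, none at day 6, 0 and 2 in the day 9 libraries and 2 in ESC. Of 3 blood markers, 2 had peaks in MEF and in ESC, 1 at days 3 and 9 and none at day 6. The part of other cell types in the results was not tested.

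The promoters show where these genes differ before any chromatin mark is considered. RefSeq promoter entries (GRCm38.p6) were found for 8 of the 9 genes. For Fosb the start of this entry lies inside the gene position given above, whose end serves as the start for distances below. The 250 bases before the start are printed for Fosb and Atf3, whose 300-base promoter entries (250 bases before to 50 after the start) a KLF4 peak overlapped in all 10 libraries, for Jund, where none did, and for Fos and Jun, the founding members, where 6 and 4 of 10 did. Capitals mark matches, on either strand, to the KLF box CCNCNCCC, the AP-1 site TGANTCA, the palindrome TGANNTCA and TGACGT, the core of the cyclic AMP response element.
Fosb (chr7:19310046-19310295, strand minus): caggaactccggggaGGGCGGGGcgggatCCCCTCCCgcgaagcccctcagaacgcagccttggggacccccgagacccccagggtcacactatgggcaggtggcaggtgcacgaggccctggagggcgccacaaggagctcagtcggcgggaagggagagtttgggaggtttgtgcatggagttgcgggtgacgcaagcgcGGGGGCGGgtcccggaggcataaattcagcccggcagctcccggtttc
Atf3 (chr1:191183334-191183583, strand minus): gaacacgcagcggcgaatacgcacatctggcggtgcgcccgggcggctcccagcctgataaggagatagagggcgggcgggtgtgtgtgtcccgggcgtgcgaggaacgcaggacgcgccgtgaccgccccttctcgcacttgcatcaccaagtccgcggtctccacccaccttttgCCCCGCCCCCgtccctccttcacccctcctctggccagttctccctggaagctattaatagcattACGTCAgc
Jund (chr8:70697489-70697738, strand plus): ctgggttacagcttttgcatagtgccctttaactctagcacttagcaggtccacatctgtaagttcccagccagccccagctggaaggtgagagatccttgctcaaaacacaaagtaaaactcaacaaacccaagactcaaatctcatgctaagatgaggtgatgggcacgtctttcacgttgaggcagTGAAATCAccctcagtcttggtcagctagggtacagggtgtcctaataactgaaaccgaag
Fos (chr12:85473640-85473889, strand plus): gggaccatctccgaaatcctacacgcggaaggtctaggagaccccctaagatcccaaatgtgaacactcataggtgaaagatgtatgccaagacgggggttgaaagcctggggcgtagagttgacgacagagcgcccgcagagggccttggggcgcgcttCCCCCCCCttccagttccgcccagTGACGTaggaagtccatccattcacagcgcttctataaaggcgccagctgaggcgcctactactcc
Jun (chr4:95052223-95052472, strand minus): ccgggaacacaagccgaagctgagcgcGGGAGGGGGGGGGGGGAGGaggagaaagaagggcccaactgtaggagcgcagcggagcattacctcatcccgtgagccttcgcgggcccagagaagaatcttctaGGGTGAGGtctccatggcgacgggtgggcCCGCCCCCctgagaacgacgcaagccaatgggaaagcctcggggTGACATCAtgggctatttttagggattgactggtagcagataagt

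A KLF box is common: 46.3% of 32407 promoters hold one in the same 250 bases, and 7 of these 8 genes do. Batf3 had 8 matches, Jun 9 (7 of them overlapping in one G-rich run), Fosb 3, Atf3 and Junb 2 each, Fos and Fosl2 1 each, and Jund none. The AP-1 site, held by 6.74% of promoters, matched in none of the 8, which says only that these letters are not in this window. The palindrome, held by 11.8%, matched in Jun at −45 to −38 (TGACATCA) and in Jund at −61 to −54 (TGAAATCA), counting −1 as the base before the start. The core TGACGT, held by 6.53%, matched in Fos at −66 to −61 and, on the other strand, in Atf3 at −8 to −3 (ACGTCA). Fos also holds the TATA box TATAAA at −33 to −28, as 12.3% of promoters do. The CArG box, bound by serum response factor, matched in 1.48% of promoters and in none of the 8 within these 250 bases.

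Within 50 kb of the genes, H3K27ac around Fosl2 and Jun fell most between MEF and ESC. Relative to the whole list, the covered length around Fosl2 was 5.96-fold lower in ESC and that around Jun 4.19-fold lower, while around Jund it was 1.68-fold higher. Fosl1 (2.02-fold), Fos (1.57-fold) and Atf3 (1.26-fold) also fell, and Fosb, Junb and Batf3 did not pass the test. Folds are on the log2(value + 20 bp per Mb) scale, and the test was limma's moderated test over 19778 genes with Benjamini-Hochberg adjustment, called at an adjusted p of at most 0.05. In total 6 of 9 genes were called, where 64.0% of all genes were, 26.4% lower and 37.6% higher, so the count itself is near the background; without scaling, 44.9% of called genes were higher instead of 58.8%. Called and at least 2-fold lower were 3 of the 9 genes and 15.4% of all genes. The MEF and ESC libraries of H3K27ac all came from batch DG-3458. A batch here and below is the code in the sample title, read as a batch.

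**Figure D1:**
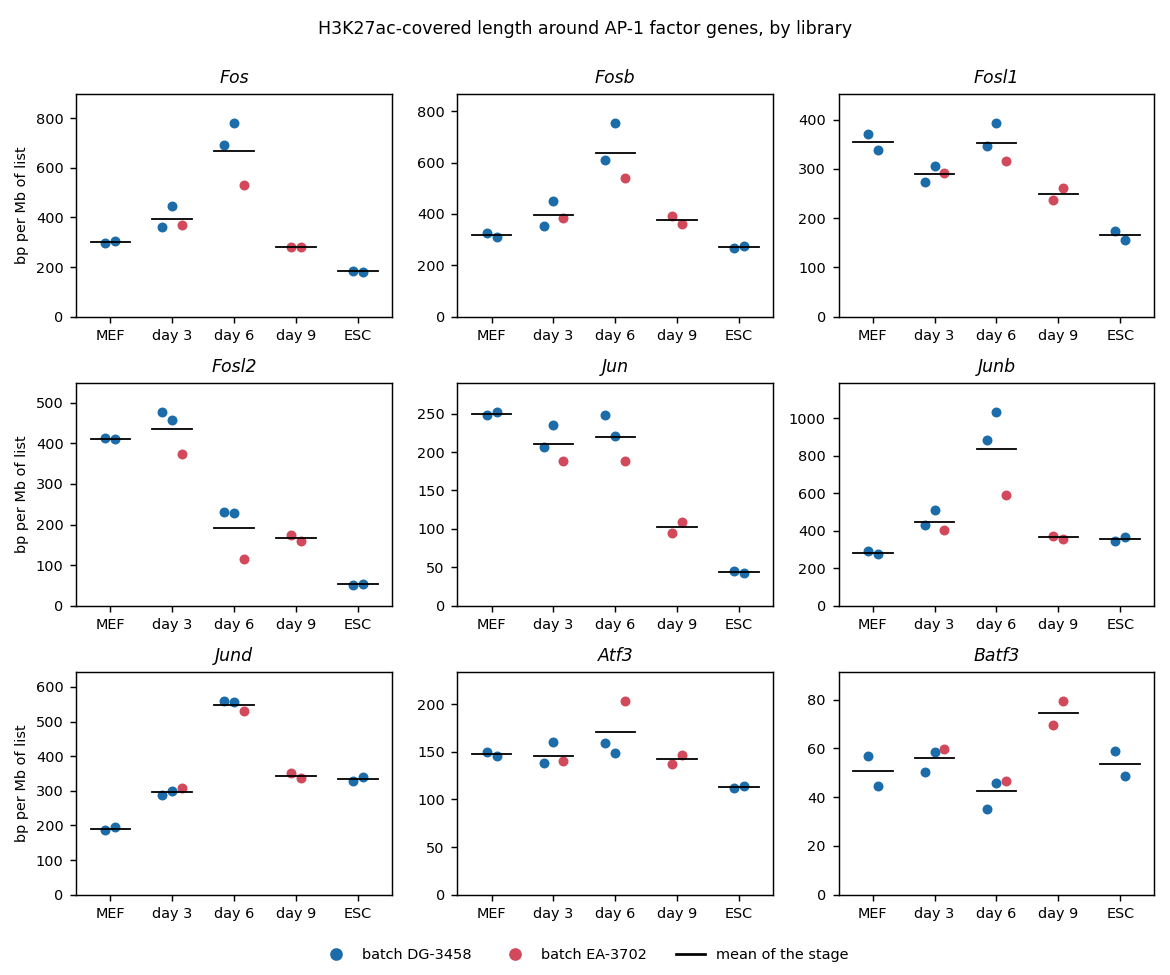
Length covered by H3K27ac peaks in the gene and 50 kb to each side, in bp per Mb covered by the whole list (y axis), for 12 libraries in 5 stages (x axis). Points are libraries, coloured by batch, and black lines are stage means; Fosl2 and Jun are lowest in both ESC libraries, and Jund is lowest in both MEF libraries.

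Fosl2 codes for Fra-2, a Fos protein without the strong activation domain of Fos. Its window was covered over 34.1 and 34.2 kb in the MEF libraries, 10.9 to 14.6 kb at day 3, 2.10 to 2.43 kb at day 6, 7.93 and 8.52 kb at day 9, and 3.37 and 3.35 kb in ESC. Per Mb of list these were 412 and 410 bp in MEF, 477, 457 and 375 bp at day 3, 231, 228 and 115 bp at day 6, 174 and 160 bp at day 9, and 50.9 and 53.9 bp in ESC. MEF and day 3 libraries overlapped, and every library of day 6, day 9 and ESC lay below them. The ESC minus MEF difference was −2.57 on the log2 scale (SE 0.27, adjusted p 3.69e-05 with limma), with 2.41% of all genes at or below it. In MEF 98.3% of genes had less covered length than Fosl2, and in ESC 38.6%.

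Jun is the main activating partner in AP-1 and can also act as a homodimer. The covered length around it was 20.5 and 21.0 kb in MEF, 5.58 to 7.22 kb at day 3, 2.04 to 3.77 kb at day 6, 4.66 and 5.38 kb at day 9, and 3.03 and 2.68 kb in ESC. Scaled to the list, it was 248 and 252 bp per Mb in MEF, 207, 235 and 188 bp at day 3, 248, 221 and 189 bp at day 6, 95.2 and 109 bp at day 9, and 45.8 and 43.0 bp in ESC. The 6 libraries of days 3 and 6 reached from 188 bp up to the MEF level, and day 9 and ESC lay below all 8 earlier libraries without overlap. The difference from MEF to ESC was −2.07 (SE 0.13, adjusted p 2.04e-06 with limma), with 4.74% of genes at or below it. In a window of 10 kb to each side it was −0.35 and was not called, a smaller fall than those of Fosl1 (−1.02), Fosb (−0.71) and Fos (−0.49). Fosl2 kept its call in that window at −1.94.

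Fosl1, the gene of Fra-1, had 370 and 338 bp per Mb in MEF and 174 and 156 bp in ESC, a difference of −1.01 (SE 0.11, adjusted p 6.44e-05 with limma). The libraries at day 3 lay between 273 and 306 bp those of day 6 between 316 and 393 bp, overlapping MEF, and those of day 9 at 236 and 262 bp. In covered kb, MEF (28.2 to 30.6) was above all other stages, and day 3 (7.27 to 11.2) and ESC (9.74 to 11.6) overlapped. Fos, the classic immediate early gene, had 295 and 303 bp per Mb in MEF and 184 and 181 bp in ESC, a difference of −0.65 (SE 0.16, adjusted p 0.00702). The 3 libraries at day 6 had 529 to 780 bp per Mb of their short lists but a mean of 8.33 kb (SD 1.92, n = 3), the lowest of the 5 stages, against 24.4 to 25.3 kb in MEF and 11.3 to 12.2 kb in ESC. Fosb, whose protein is close to Fos, had 327 and 311 bp in MEF and 268 and 277 bp in ESC, a difference of −0.21 (SE 0.16, adjusted p 0.263). Counted in peaks instead of covered length, Fos (−0.48) and Fosl1 (−0.33) lost their calls and Fosb stood at 0.48 without one. With equal numbers of top peaks and in the 10 kb window, Fos lost its call (−0.34 and −0.49) and Fosb was called lower (−0.79 and −0.71).

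Jund, the most broadly expressed Jun gene, had 187 and 195 bp per Mb in MEF, 288, 299 and 307 bp at day 3, 559, 557 and 530 bp at day 6, 351 and 336 bp at day 9, and 329 and 340 bp in ESC. Both MEF libraries were below the 10 others per Mb, but in covered kb (15.5 and 16.3) they were above all those of day 3 (7.12 to 11.8) and day 6 (5.13 to 10.6) and below those of ESC (21.2 to 21.8). The difference from MEF to ESC was 0.75 (SE 0.07, adjusted p 2.00e-05 with limma), and without scaling to the list it was 0.43 and not called. Junb, a weaker activator that can hold Jun back, had 290 and 277 bp per Mb in MEF and 347 and 365 bp in ESC, and its difference of 0.31 (SE 0.22, adjusted p 0.247) did not pass; without the day 6 library of batch EA-3702 it did, at 0.31.

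Atf3, a stress-induced factor that binds the cyclic AMP response element, had 150 and 145 bp per Mb in MEF and 112 and 114 bp in ESC. Its difference of −0.33 (SE 0.13, adjusted p 0.0497 with limma) sat at the threshold. The call was lost, at −0.35 to −0.31, without any single MEF, ESC, day 3 or day 9 library or 1 of the day 6 libraries of batch DG-3458. Counted in peaks it was 0.13, in a 10 kb window 0.35 and unscaled −0.71, all without a call, and with equal numbers of top peaks it was −0.90 and called. The call was also lost, at −0.37 to −0.21, with all genes kept, a variance trend, either other pseudocount, a replicate block or a q-value of at most 0.01. Batf3, a factor best known from dendritic cells, had 56.9 and 44.8 bp per Mb in MEF and 58.9 and 48.6 bp in ESC, with a difference of 0.06 (SE 0.13, adjusted p 0.720). Its window overlaps that of Atf3, and the pair share 4 H3K27ac regions.

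From MEF to day 3, Jund (0.59, SE 0.06, adjusted p 1.01e-04) and Junb (0.61, SE 0.20, adjusted p 0.0314) rose relative to the list by limma, and the other 7 genes lay between −0.27 and 0.36 without passing. These are 2 of 9 genes where 48.6% of all genes were called and 29.3% called higher. The direction depends on the scaling. In kb all 9 genes were less covered in each day 3 library than in either MEF library, and without scaling all 9 were called lower, from −0.78 for Junb and Jund to −1.69 for Fosl1, where the median of all genes was −0.99. Without scaling 67.3% of all genes were called. Among called genes 60.3% were higher with scaling and 2.42% without. The Junb call was lost, at 0.52 to 0.65, without either ESC library, either MEF library or either day 3 library of batch DG-3458. Counted in peaks (0.73) or with equal numbers of top peaks (0.33) it was lost too. In the 10 kb window Jund lost its call (0.30) while Jun (0.82) and Fos (0.93) were called higher and Fosl1 (−0.92) lower. Fos was also called higher with batch as a term (0.46), at a q-value of at most 0.01 (0.48) and with equal numbers of top peaks (0.57), where Fosl1 was called lower (−0.79). Day 3 joins batches DG-3458 and EA-3702, and MEF is of DG-3458 alone.

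From day 3 to day 9, Fosl2 fell by 1.28 on the log2 scale (SE 0.24, adjusted p 0.00330 with limma) and Jun fell by 0.91 (SE 0.12, adjusted p 4.86e-04). Fos also fell, by 0.45 (SE 0.15, adjusted p 0.0423), and Jund rose by 0.19 (SE 0.06, adjusted p 0.0427). These 4 of 9 compare with 37.8% of all genes called, 12.1% lower and 25.6% higher. With batch as a term Fosl2 (−0.89) and Jun (−0.75) remained called, and Fos (−0.26) and Jund (0.20) did not. Within batch EA-3702 alone, 2 libraries against 1, the differences were −1.08 for Fosl2, −0.77 for Jun, −0.37 for Fos and 0.15 for Jund, with no test. The Fos call was lost, at −0.50 to −0.36, without any 1 of 10 libraries, the exceptions being 1 of the day 6 libraries of DG-3458 and that of EA-3702. The Jund call was lost, at 0.16 to 0.22, without either day 9 library or either day 3 library of DG-3458. Without scaling, Fosl2 stood at −0.65 and Jun at −0.31, the latter not called, against a median of 0.70 over all genes, and Fos turned to 0.21; of called genes 67.9% were higher with scaling and 94.3% without. Counted in peaks, Jun stood at −1.11 with its call, and Fosl2 (−0.77) and Fos (−0.62) lost theirs. Jund turned to −0.58 and was called lower, and Batf3 (0.59) was called higher. Unscaled, Batf3 (0.92), Fosb (0.61) and Junb (0.41) were called higher. With equal numbers of top peaks Fos (−0.45) lost its call and Fosl1 (−0.36) gained one. In the 10 kb window Jun (−0.41), Fos (−0.50) and Jund (0.43) lost their calls. The step also goes from unsorted to sorted cells, which cannot be told apart from time.

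From day 9 to ESC, 6 of 9 genes fell by limma where 54.0% of all genes were called and 31.1% called lower: Fosl2 by 1.37 (adjusted p 0.00245), Jun by 0.92 (adjusted p 4.50e-04), Fos by 0.57 (adjusted p 0.0177), Fosl1 by 0.54 (adjusted p 0.00397), Fosb by 0.44 (adjusted p 0.0416) and Batf3 by 0.36 (adjusted p 0.0482). Junb and Jund both stood at −0.04 and Atf3 at −0.28. All day 9 libraries came from batch EA-3702 and all ESC libraries from DG-3458, so no value within a batch exists. With batch as a term, estimated from days 3 and 6, Fosl2 (−1.96) and Jun (−1.16) were called and Batf3 (−0.24) was not. Without scaling only Fosl2 and Jun were called, where 40.8% of all genes were, and 63.5% of called genes were higher instead of 42.4%. Counted in peaks, Fosl2 (−0.61) and Jun (−0.28) lost their calls too. The calls of Fosl1, Fosl2 and Jun held without any single library, but that of Fosl1 was lost with equal numbers of top peaks (−0.08), where Atf3 was called lower (−0.75). That of Fos was lost, at −0.57 to −0.56, without either ESC or either day 9 library. Those of Fosb (−0.50 to −0.38) and Batf3 (−0.46 to −0.26) were lost without any 1 of these 4 libraries and without 4 others each.

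**Figure D2:**
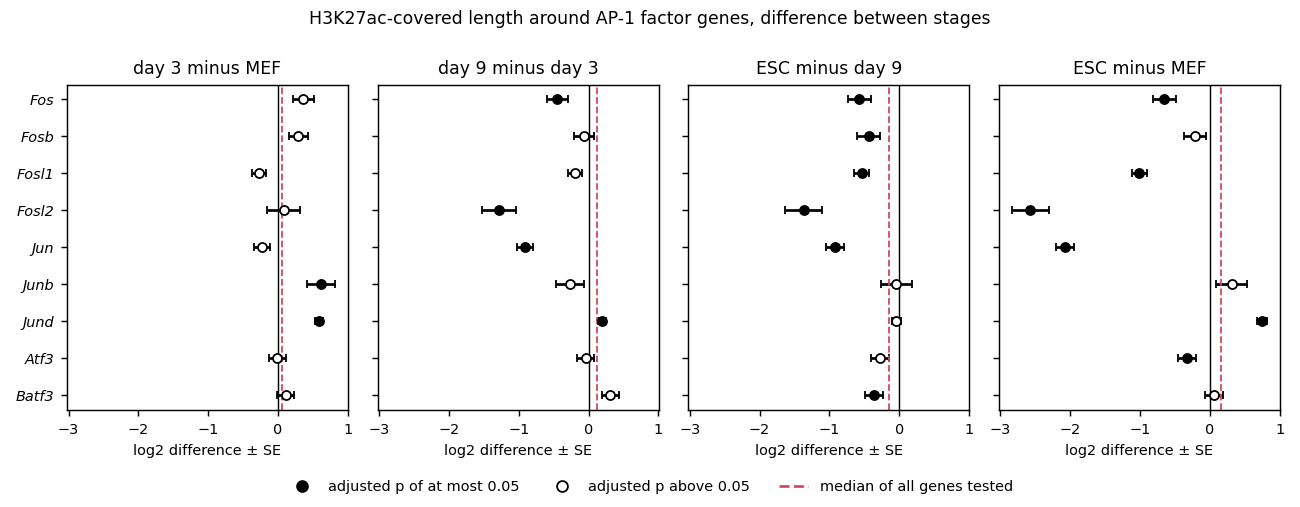
Difference in H3K27ac-covered length, log2 of bp per Mb + 20, between stages (x axis, ± SE) for 9 genes (y axis), with filled points where the adjusted p is at most 0.05 and a dashed line at the median of all genes tested. Fosl2 and Jun lie farthest to the left in the 3 comparisons other than day 3 minus MEF, and Jund lies to the right in day 3 minus MEF and ESC minus MEF; the comparisons share libraries.

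Counted as separate regions, most of the acetylated regions that MEF had around Jun and Fosl2 had no peak in ESC, as did 32228 of the 49643 that MEF had around all protein-coding genes. A region joins overlapping peaks found in at least 2 libraries of a stage, is present at a stage with peaks in 2 or more libraries and absent with none. Around Jun 16 regions were found, and MEF had all 16, while day 3 had 4, day 6 had 1, day 9 had 2 and ESC had 1. The region kept in every library spans the gene's start; the 15 others had no peak in ESC, and 10 were seen in MEF alone. Around Fosl2 14 regions were found, of which MEF had 13, days 3 and 9 had 3 each, day 6 had 1 and ESC had 2. Of those 13, 12 had no peak in ESC, and the one kept is the region of 12273 bp over the gene's start. A region 47.2 kb downstream of the Fosl2 start was absent in MEF and day 6 and had peaks in all day 3, day 9 and ESC libraries.

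The strongest regions away from these genes went at different times. The best-ranked one for Jun, 47.7 kb upstream of the start, had deposited fold enrichments of 14.3 and 18.2 in MEF and 3.25 to 4.28 at day 3, and no peak in the 7 later libraries. A second upstream region, at −30.1 kb, had peaks in all MEF, day 3 and day 9 libraries, 1 of 3 day 6 libraries and no ESC library. For Fosl2 the best-ranked one, centred 57.8 kb downstream, had folds of 16.4 and 31.0 in MEF, 8.65 to 10.3 at day 3, 3.00 in 1 of 3 day 6 libraries, 7.21 and 6.16 at day 9, and no peak in ESC. The folds are the authors' own values per peak and depend on each library, so they rank peaks within a list and show no change between lists.

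Around Fos, 14 of 16 regions were present in MEF and 4 at each of days 3, 6 and 9. The same 4 regions, at −19.8, −11.3, −0.6 and 12.6 kb from the start, had peaks in all 12 libraries, and 8 others were seen in MEF alone. ESC had 6 regions there, 2 of them with no peak at another stage. Fosb kept more: 12 of its 18 regions were present in MEF and 14 in ESC, 10 in both, and 6 in all libraries. Fosl1 had 11 of 13 in MEF, 4 at day 6 and 8 in ESC. The region over its lower end, 2760 bp long, had peaks in both MEF, both day 9 and both ESC libraries, in 1 of 3 at day 3 and in none at day 6. The wider regions over the starts of Fos, Fosb, Fosl2, Jun, Junb, Jund and Atf3 had peaks in all 12 libraries. On the 300-base promoter entries themselves, Fos, Fosb and Fosl2 had peaks in all 12. Jun had them in 2 of 3 libraries at day 3 and at day 6, Junb in 2 and 1, Jund in 1 and 2 and Atf3 in 1 and 1, and all 4 had them in every MEF, day 9 and ESC library.

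Around Junb 9 of 11 regions were present in MEF and 9 in ESC, with 7 in both. Jund went from 9 of 15 in MEF to 10 in ESC, with 6 regions in ESC that MEF lacked, among them one 6.0 kb upstream with peaks in both day 9 and both ESC libraries only. Atf3 had 7 of 12 in MEF and 6 in ESC, and Batf3 5 of 10 in each, its start region being present in MEF and in 1 library each of day 9 and ESC. Other protein-coding genes lie in the windows of Fosl1 (11 genes), Junb (8), Fosb (7), Jund (5), Batf3 (2) and Atf3 (1), and several regions there cover them, such as Vasp and Ercc1 near Fosb and Lsm4 near Jund. No other protein-coding gene lies in the windows of Fos, Fosl2 or Jun.

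**Figure D3:**
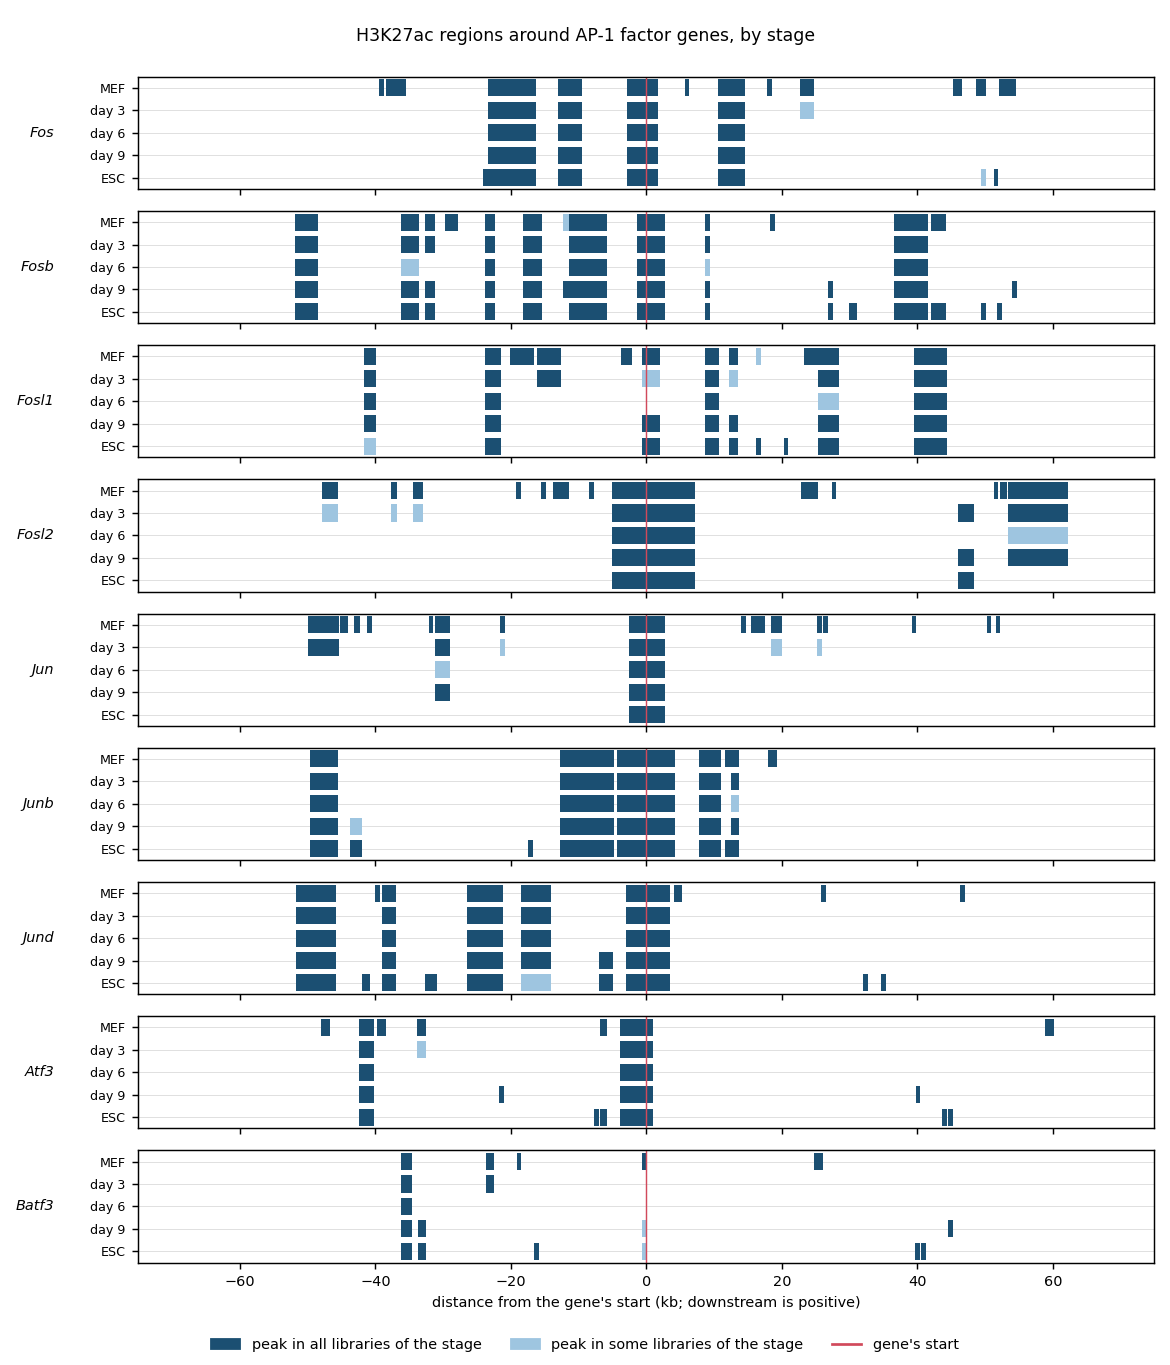
H3K27ac regions by distance from the gene's start in kb (x axis; from the lower coordinate for Fosl1) for 5 stages of each gene (y axis), dark where all libraries of the stage have a peak and light where some do; regions under 0.7 kb are drawn 0.7 kb wide. Jun and Fosl2 have many regions in MEF and few besides the one over the start in ESC, while Fosb and Junb keep most.

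Together the 9 windows held 121 H3K27ac regions. Of these, 54 (44.6%) were present in MEF and absent in ESC, 21 (17.4%) present in ESC and absent in MEF, and 37 (30.6%) present in both. Over the windows of all protein-coding genes, 36.6%, 29.2% and 17.3% of 88155 regions fell in these classes. Regions with a peak in all 12 libraries made up 22.3% around the AP-1 genes and 9.24% around all genes, and regions present in MEF 78.5% and 56.3%. Of the regions present in MEF, 54 of 95 were absent in ESC around the AP-1 genes, a smaller share than the 32228 of 49643 around all genes. Present in both were 37 of 95 and 15293 of 49643. No test was made of these shares, since neighbouring regions share libraries and genes. With each library limited to the same number of top peaks, the 3 classes held 20, 3 and 22 regions. A region called absent also depends on single libraries, since leaving out the first or second MEF library raised the count of regions in MEF and not ESC to 83 and 82, and leaving out the second ESC library raised that in ESC and not MEF to 37, because 1 library then decides the stage.

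On the 300-base promoter entries, the acetylation peaks of Fos, Fosb and Jun ranked at the top of the MEF lists. The Fos peak had deposited folds of 74.7 and 63.1 and outranked at least 99.9% of peaks in both MEF lists, and in ESC it had 10.3 and 13.0 and outranked 89.4% and 91.6%. For Jun the folds were 65.7 and 64.5 in MEF and 7.18 and 11.4 in ESC, with ESC ranks of 77.7% and 88.2%. For Fosb they were 59.1 and 67.5 in MEF and 8.38 and 8.53 in ESC, with ESC ranks of 80.7% and 82.4%. Jund ranked highest of the 8 genes in both ESC lists, at 95.2% and 92.7%, where Atf3 stood at 83.6% and 87.6%. Junb ranked at 99.8% and 99.6% in MEF, and its ESC libraries were far apart, at 87.2% and 18.1%; elsewhere in its region of 8577 bp, which also covers Prdx2, ESC peaks ranked at 98.9% and 98.0%. Fosl1 has no promoter entry, and the best peak of its region ranked at 90.5% and 90.6% in MEF and at 22.4% and 28.1% in ESC. Ranks from lists of different length are a description of each list.

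KLF4 peaks were found around all 9 genes at day 3, and no AP-1 factor gene's number of KLF4 peaks passed the test from day 3 to day 9 or from day 3 to serum ESC; day 6 and 2i were not tested. The number of peaks in the window ran from 1 to 7 for Jun, 0 to 3 for Batf3, 2 to 8 for Atf3, 3 to 8 for Fosl2, 4 to 7 for Fos, 7 to 12 for Fosl1, 4 to 15 for Fosb, 8 to 17 for Junb and 5 to 17 for Jund. Around Jun there were 7 and 2 peaks at day 3, 3 and 1 at day 6, 2 and 1 at day 9, 2 and 1 in serum ESC, and 3 and 2 in 2i; the stages overlap, and the day 3 library of batch EA-3702 with 7 stands alone. Around Jund there were 7 and 10 at day 3, 9 and 5 at day 6, 7 and 10 at day 9, 9 and 17 in serum ESC, and 16 and 15 in 2i, where both 2i libraries exceed all 6 of days 3 to 9.

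From day 3 to serum ESC, 0 of 9 genes were called by limma on log2(peaks per 10000 peaks of the list + 0.5) over 18858 genes, where 7.16% were called, and no member had an unadjusted p of at most 0.05, against 27.2% of all genes. The difference was 0.69 for Jund (SE 0.35, adjusted p 0.233), −0.69 for Jun (SE 0.49, adjusted p 0.404) and −0.59 for Fosl2 (SE 0.31, adjusted p 0.256). Leaving out 1 library moved that of Jun between −1.25 and −0.14, the value nearest 0 being without the day 3 library of EA-3702, and that of Fosb between −0.16 and 1.23. From day 3 to day 9, 0 of 9 genes and 0 of all genes (0%) were called by limma, and 58 genes by limma with a variance trend, while 18.0% of all genes had an unadjusted p of at most 0.05. Atf3, with 8 and 5 peaks at day 3 and 2 in each day 9 library, was the one member among them (−0.94, SE 0.28, adjusted p 0.129), and within batch EA-3702 its difference was −1.12. Both comparisons share the day 3 libraries. Of genes called between day 3 and ESC 63.2% were higher with scaling and 46.2% without. All serum ESC libraries came from batches of their own (EA-2697 and EA-2643), which cannot be told apart from the stage.

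**Figure D4:**
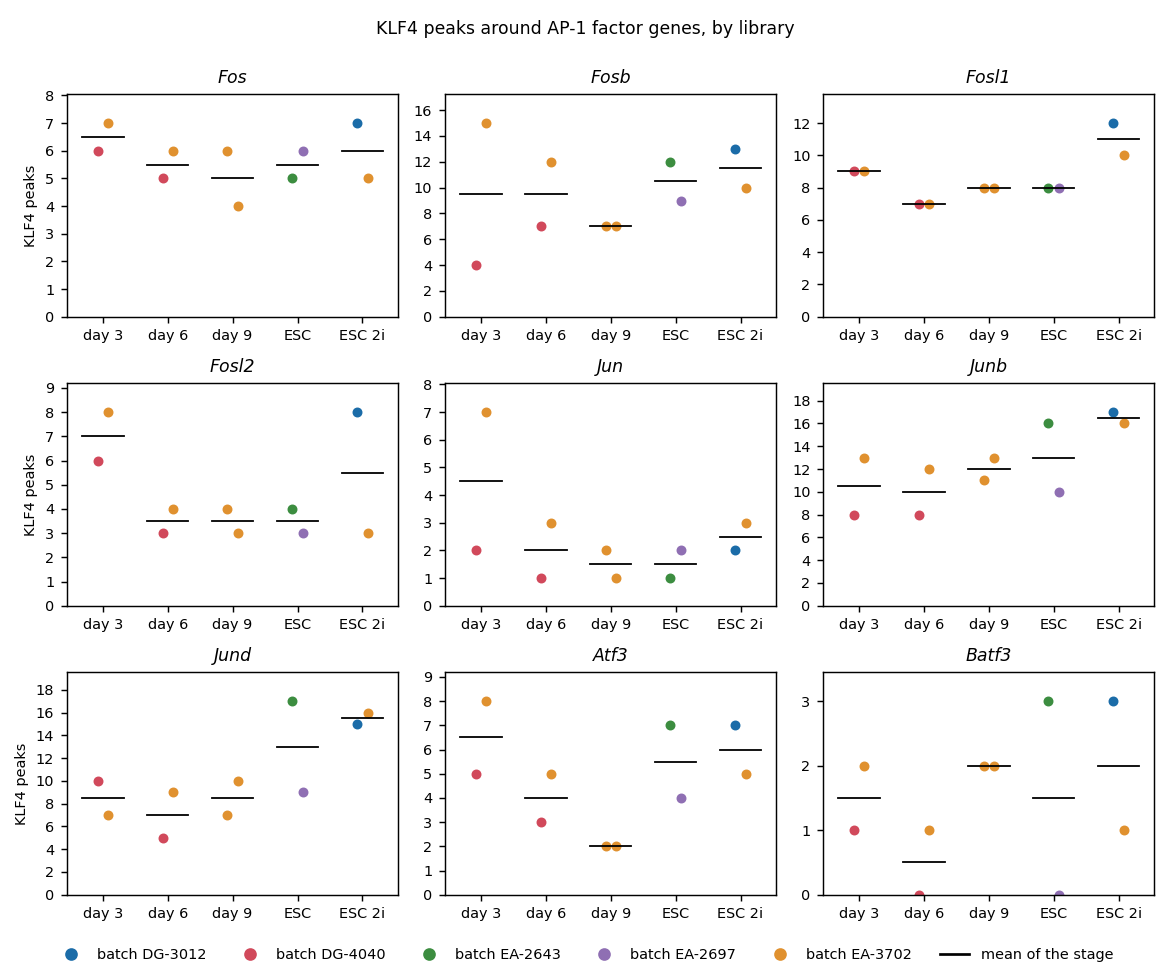
Number of KLF4 peaks in the gene and 50 kb to each side (y axis, not scaled to the length of the list) for 10 libraries in 5 stages (x axis). Points are libraries, coloured by batch, and black lines are stage means; libraries of a stage differ, with 15 and 4 peaks for Fosb at day 3, and Jund is highest in 2i and in 1 serum ESC library.

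Near 5 of the genes KLF4 held a region in every library, but on the promoter entry itself only Fosb and Atf3 had peaks in all 10, against 3 of 10 libraries for Junb, 2 for Fosl2 and 0 for Jund. The centres of these regions lay at −0.1 kb for Fosb, −1.0 kb for Fosl2, 2.1 kb for Junb, 1.3 kb for Jund and −0.2 kb for Atf3, that of Junb being over the far end of the gene. The Jund region ranked highest, outranking 90.7% to 99.9% of the peaks of each list, with folds from 5.10 in 1 of the 2i libraries to 35.0 in 1 of the day 6 libraries. It lies downstream of the promoter printed above. The region at the lower end of Fosl1 had peaks in 9 of 10 libraries. The Atf3 start region had folds of 9.77 and 4.03 at day 3, 7.73 and 4.41 at day 6, 5.17 and 5.53 at day 9, 7.31 and 3.46 in serum ESC, and 5.69 and 6.53 in 2i.

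Fos, Jun and Batf3 had no such region. Upstream of Fos, at −1.6 kb, KLF4 had peaks in both day 3 libraries, 1 of 2 at day 6, none at day 9, and in all 4 ESC libraries. On the Fos promoter entry a peak stood in 1 library each of days 3, 6 and 9, both of serum ESC and 1 of 2i. A second Fos region, 3.5 kb downstream of the start, had peaks in 1 day 3 and both day 9 libraries and in no other. Upstream of Jun, at −1.1 kb, it had peaks in 1 day 3, both day 6 and 1 day 9 library, with folds of 2.41 to 3.94, and in no ESC library. Single peaks outside that region still put KLF4 within 2.5 kb of Jun in both 2i libraries, over 0.203 and 0.214 kb, and on its promoter entry in 1 of them. Batf3 had a start peak in both day 3 libraries, in 1 serum and 1 2i library, and none at days 6 and 9. Around the Fosl2 start 2 further regions, at the start itself and at 3.3 kb, had peaks in both day 3 libraries and in no day 9 or serum ESC library, and another, at −2.9 kb, had them in both day 3, 1 serum ESC and both 2i libraries.

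Away from the starts, several KLF4 regions, picked after their values were seen, had peaks at different stages. A region 16.1 kb upstream of Jund had peaks in all 6 libraries of days 3 to 9, with folds of 7.92 to 18.0, and in none of 4 ESC libraries; the H3K27ac region there had peaks in all libraries but 1 of ESC. A region 55.0 kb downstream of Fosl2 likewise had KLF4 in the 6 libraries of days 3 to 9 and none of ESC, and it lies in the acetylated region with no peak in ESC. Upstream of Jun, KLF4 had peaks at −46.3 kb in both day 3 libraries only and at −30.4 kb in both day 3 and 1 day 6 library, inside the regions whose acetylation was also gone in ESC. At −24.2 kb from Jun the pattern was the opposite, with peaks in all 4 ESC libraries and none of 6 before, and no H3K27ac region there at any stage. The best-ranked KLF4 region near Fos, at −22.0 kb, had peaks in 9 of 10 libraries, all but 1 of day 3. Near Atf3 a region at −41.3 kb had peaks in all 10 libraries, with folds of 6.80 to 28.0, over an H3K27ac region present in all 12.

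**Figure D5:**
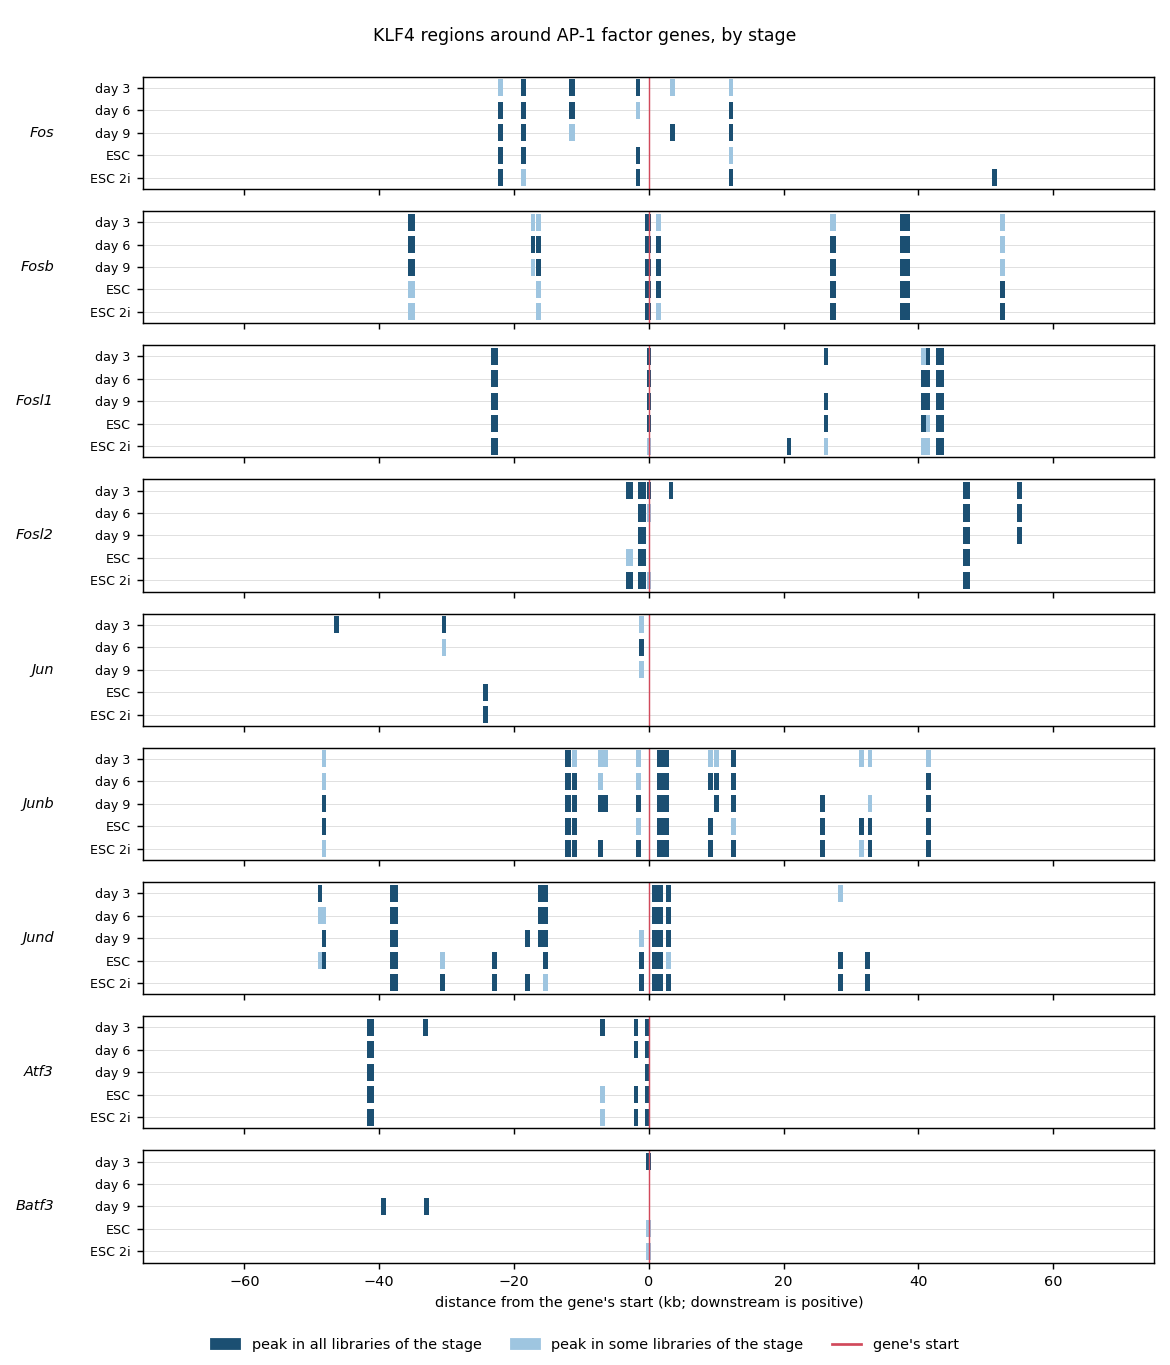
KLF4 regions by distance from the gene's start in kb (x axis; from the lower coordinate for Fosl1) for 5 stages of each gene (y axis), dark where both libraries of the stage have a peak and light where 1 does; regions under 0.7 kb are drawn 0.7 kb wide. Regions with both libraries at every stage stand at or near the genes Fosb, Fosl2, Junb, Jund and Atf3, and Jun and Batf3 have no region with both libraries at day 3 and both in serum ESC.

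In all, the windows held 67 KLF4 regions, from 3 for Batf3 and 4 for Jun to 14 for Junb. Of these, 8 (11.9%) were present at day 3 and absent in serum ESC, 6 (8.96%) the reverse, and 18 (26.9%) present at both, against 18.6%, 14.7% and 21.6% of 32570 regions around all genes. Regions in all 10 libraries made up 17.9%, against 12.4%. The classes rest on single libraries: the day 3 class held 18 regions without the day 3 library of EA-3702, 29 without that of DG-4040 and 16 without the serum ESC library of EA-2643, and the ESC class 15 without the day 3 library of EA-3702 and 21 without the ESC library of EA-2697. Between 76.0% and 89.8% of the KLF4 peaks in the windows of a library lay over a region acetylated at the same stage, against 40.1% to 73.5% of all its KLF4 peaks. This share was higher around the AP-1 genes in each of the 8 libraries compared, but it was not tested. All KLF4 peaks of a library include those outside gene windows, and most AP-1 windows had more H3K27ac-covered length than the median gene. No acetylation list of ESC in 2i was used here.

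Other genes of the pathway moved in both directions between MEF and ESC. These counts stand beside 37.6% of all genes called higher and 26.4% called lower. Of 10 further leucine zipper partners, 3 rose (Atf2 by 1.80, Mafg by 1.04 and Jdp2 by 0.69), 3 fell, among them Maf (−2.53) and Mafk (−1.64), and 4 did not pass by limma. Of 12 kinases and serum response factor cofactors that act on these genes, 3 rose, among them Elk1 (1.19), and 3 fell: Map2k4 (−1.46), a kinase upstream of the Jun kinases, Elk3 (−1.07) and Srf (−0.81), the serum response factor itself. Of 11 known AP-1 targets, 5 fell, with Cd44, a matrix receptor, at −4.26, and Plaur, the urokinase receptor, rose by 1.39. List medians were −0.12, −0.12 and −0.43, that of the 9 AP-1 factor genes −0.33 and that of all genes 0.16. In day 3 minus MEF, where 29.3% of all genes were called higher and 19.3% lower, the same lists had 4 higher and 1 lower, 1 and 1, and 1 and 3. In day 9 minus day 3, with 25.6% and 12.1%, they had 0 and 2, 5 and 1, and 2 and 3. In ESC minus day 9, with 22.9% and 31.1%, they had 3 and 2, 0 and 5, and 2 and 3. From day 3 to day 9 the targets Dusp1, a MAP kinase phosphatase, Cd44 and Ccnd1, a cyclin, fell by 1.10, 1.67 and 0.50, and Mmp3, a matrix protease, and Plaur rose by 2.77 and 0.74. For KLF4 from day 3 to serum ESC, Atf2 rose by 1.44 and Elk3 (−1.10) and Cd44 (−1.90) fell in number of peaks; no other gene of the 3 lists was called, and of all genes 0 were called by limma without the serum ESC library of EA-2697 or the day 3 library of DG-4040.

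Across the 12 H3K27ac libraries, the gene elsewhere in the genome whose level was most like that of Fosl2 was Anxa5 (Pearson r 0.985) and for Jun it was Sh3pxd2b (r 0.985). For Fos it was Calr4 (0.995), for Fosb Rbm12b1 (0.990), for Fosl1 Uts2b (0.984), for Junb Dr1 (0.991), for Jund H2ac15 (0.990) and for Atf3 Cox15 (0.933). For Batf3 the highest r was 0.891. The libraries share the scaling to list length and only 5 stages, and each is the best of 19778 genes, so these values are a description.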

How the data were processed

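H3K27ac and KLF4 ChIP-seq peak lists of 22 libraries were used, 12 and 10 respectively; 13 input libraries were not analysed here. Per the submitters' processing notes, cutadapt 1.8.1, Bowtie2 2.2.5, deepTools 2.3.6 and MACS2 2.1.1 were used with the build mm10. Each list is headerless and was called per library; the authors deposited for each peak a score, a fold enrichment (a ratio over background), a −log10 p-value and a −log10 q-value. Which lists used which input or threshold is not given in the sources used here. The lists hold no read counts, so sequencing depth could not be read from them and counting error is not covered; a library with more reads can yield more and longer peaks.

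Gene positions came from the RefSeq table of GRCm38.p6, the assembly of mm10, for 21631 protein-coding genes, and promoters from RefSeq entries of the same build. For each gene with 50 kb on each side, H3K27ac was expressed as log2 of (bp covered per Mb covered by the list + 20) and KLF4 as log2 of (peak midpoints per 10000 peaks + 0.5). Genes with a peak in at least 2 libraries (19778 and 18858) were fitted in one model over all libraries of a mark with limma 3.58.1 in R 4.3.3, and p-values were adjusted by the Benjamini-Hochberg method over all of them. Tables were made with Python 3.11.15, numpy 2.4.6 and pandas 2.3.3. Overlaps needed 1 bp. The fitting script was tested on simulated data. The labels do not say that replicates came from separate cultures or animals, so p-values measure the spread between these libraries. The groups follow the labels; peak names in the day 6 H3K27ac lists of batch DG-3458 carry the replicate numbers exchanged against the titles, so these libraries are not told apart by number.

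All 9 genes are named. Of the regions, those within 2.5 kb of a gene and the best-ranked one elsewhere follow a rule, and others named were picked after their values were seen. The genes and lists were chosen with earlier results of these data known. Alternatives were other windows, pseudocounts, filters, scalings, peak limits, a batch term, a replicate block and leaving out each library; a limma variance trend was added after seeing the data.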

Additional observations from a re-analysis of the deposited data

How the results depend on the processing

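Covered length depends on list length, which cannot be separated here from depth. The fall of Fosl2 between MEF and ESC (−3.17 to −1.51) was called under every alternative, and that of Jun (−2.67 to −0.35) under all but the 10 kb window. For changed results, the cause was not tested.

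Unscaled, day 3 minus MEF turned to −1.04 for Fos, −1.12 for Fosb, −1.34 for Fosl2, −0.78 for Junb and Jund and −1.09 for Batf3. It called 9 of the genes against 2, and 67.3% of all genes against 48.6%. Unscaled, day 9 minus day 3 turned to 0.21 for Fos, 0.61 for Fosb and 0.41 for Junb. ESC minus day 9 called 2 of the genes against 6, and 40.8% of all genes against 54.0%. Counted in peaks, Atf3 turned to 0.13 in ESC minus MEF, Jund to −0.58 in day 9 minus day 3, and Fos to 0.14 and Jund to 0.39 in ESC minus day 9. Counted so, 3 of the genes were called in ESC minus MEF against 6, 1 in day 3 minus MEF against 2, and 1 in ESC minus day 9 against 6. All genes called were 9558 against 12658 in ESC minus MEF and 6754 against 9618 in day 3 minus MEF. They were 4319 against 7474 in day 9 minus day 3 and 5648 against 10673 in ESC minus day 9. In the 10 kb window Atf3 turned to 0.35 in ESC minus MEF and Jun to 0.82 in day 3 minus MEF. There 4 of the genes and 43.9% of all genes were called in day 3 minus MEF, and 1 and 30.1% in day 9 minus day 3. A batch term left 2 of the genes called in day 9 minus day 3, where 34.1% of all genes were called.

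Title numbers did not pair the H3K27ac libraries (correlation of deviations −0.01 to 0.04). With the replicate block, day 9 minus day 3 called 2 of the genes and 3866 of all genes (not Fos, −0.26, or Jund, 0.22), and ESC minus day 9 called 3 and 6966 (not Fosb, −0.68, Fosl1, −0.57, or Batf3, −0.17). No such fit was made for KLF4, where stages share fewer than 2 numbers.

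For KLF4 in ESC minus day 3, genes called went from 1350 to 2517 by covered length, 844 unscaled, 455 with peaks at a q-value of at most 0.01, and 515 in the 10 kb window. In day 9 minus day 3 they went from 0 to 374 with all genes kept, 591 by covered length, 750 with equal numbers of top peaks, 58 with the variance trend, 332 unscaled, 13 and 388 with pseudocounts of 2 and 0.1, and 1 in the 10 kb window. No AP-1 factor gene was called for KLF4 under any alternative run.

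At a q-value of at most 0.01, 12 H3K27ac regions were in ESC and not MEF, and 5, 0 and 10 KLF4 regions were in day 3 and not ESC, ESC and not day 3, and both. With equal numbers of top peaks (17493 for H3K27ac and 21129 for KLF4), 52 H3K27ac regions were left, 20 in MEF and not ESC, 3 in ESC and not MEF and 22 in both, and 11 KLF4 regions in both. Taking peaks of any library gave 188 and 141 regions. The 10 kb window gave 29 H3K27ac regions (6, 2 and 19 in those classes) and 24 KLF4 regions (2, 1 and 8).

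Leaving out 1 library gave 5 to 7 called AP-1 factor genes and 10419 to 13659 genes in ESC minus MEF, 1 to 4 and 6676 to 10674 in day 3 minus MEF, 2 to 4 and 4886 to 8782 in day 9 minus day 3, and 3 to 7 and 7867 to 12012 in ESC minus day 9. In day 3 minus MEF the count was 1 without either ESC, MEF or DG-3458 day 3 library and 4 without 1 of the DG-3458 day 6 libraries or the EA-3702 one; in day 9 minus day 3 it was 2 without either day 9 or DG-3458 day 3 library, where all genes called were 4886 and 4965 without a day 9 library; in ESC minus day 9 it was 3 without either ESC or day 9 library. For KLF4 no AP-1 factor gene was called (0 to 0), with 0 to 1270 genes in ESC minus day 3 (0 without the EA-2697 ESC or the DG-4040 day 3 library, 160 without the EA-3702 day 3, 309 without the EA-2643 ESC and 470 without either day 9 library) and 0 to 0 in day 9 minus day 3. H3K27ac regions numbered 121 to 150, 54 to 83 in MEF and not ESC, 21 to 37 in ESC and not MEF and 37 to 41 in both; KLF4 regions 68 to 93, 8 to 29 in day 3 and not ESC, 6 to 21 in ESC and not day 3, and 18 to 28 in both (28 without the DG-4040 day 3 library). Among all single-gene values with a whole set of libraries, 439 kept direction and call, 50 lost a call, 17 gained one, 15 changed sign with a call in either setting and 46 changed sign with none.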

Other observations

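A few KLF4 regions around the AP-1 factor genes divided the culture conditions of ESC or marked day 9, and are given here as values without a test. A KLF4 region at 51.3 kb from the Fos start overlaps an H3K27ac region seen in ESC alone, and those acetylation libraries were not of 2i. There, inside the window, KLF4 had peaks in both 2i libraries and in none of the 8 others, which include serum ESC. At −18.0 kb from Jund it had peaks in both day 9 and both 2i libraries and in no serum ESC, day 3 or day 6 library. At −48.2 kb from Jund, over Pgpep1, the order was different, with both day 9, both serum ESC and 1 day 6 library and none of 2i.

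Near Batf3, KLF4 had peaks at −39.4 and −33.0 kb in both day 9 libraries and in no other. The second of these lies over Nsl1, a kinetochore gene, in an H3K27ac region with peaks in both day 9 and both ESC libraries and none before. The first lies over Tatdn3 with no H3K27ac region at any stage. The regions near Batf3 are 419 and 293 bp long. All regions in these observations were picked after their values were seen.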
